A study of Homo sapiens with 20 samples.

Results

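The genes described here are 9 of the 60271 genes in the deposited count tables, matched by symbol from a list drawn up with earlier results of these data known. They handle retinaldehyde and retinoic acid or belong to the aldehyde dehydrogenase family. They are ALDH1A1, ALDH1A3, ALDH3A1, ALDH3B2, DHRS3, CRABP2, CYP26B1, RARB and RARG, and each matched 1 row. The RNA came from MDA-MB-468, an epithelial line of triple negative breast cancer in which epidermal growth factor (EGF) induces an epithelial-to-mesenchymal transition (EMT). The control (CTR) received no EGF, and the other groups received EGF at 50 ng/mL for the last 12, 24, 48 or 72 h. Per the labels, EGF followed 24 h of serum starvation, the groups shared seeding and harvest, and they differed in when EGF was added. How long the cells of each group, CTR included, were without serum in total is not given in the sources used here. If that time differed between groups, its part cannot be told apart from that of the time with EGF. Each of the 5 groups had 4 libraries that the labels call biological replicates, so the results hold for 1 cell line. The labels do not say whether replicates were cultured on separate days, and p values measure the spread between these libraries.

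Retinoic acid is made from retinol in steps. Retinol is oxidized to retinaldehyde, DHRS3 reduces retinaldehyde back to retinol, and the ALDH1A enzymes oxidize it irreversibly to retinoic acid. In the cell, CRABP2 carries retinoic acid to the nucleus, where the receptors RARA, RARB and RARG bind it as partners of the RXR proteins. CYP26 enzymes clear it by hydroxylation. ALDH3A1 oxidizes fatty and aromatic aldehydes, ALDH3B2 belongs to the same ALDH3 branch, and ALDH1A1 and ALDH1A3 underlie the aldehyde dehydrogenase activity by which stem-like breast cancer cells are often sorted.

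For 7 of the 9 genes, the RefSeq promoter table (GRCh38.p14) gave 12 windows, of which the 250 bases before the start were searched. Motifs of 2 kinds were looked for on both strands. The retinoic acid response element was written as a direct repeat of 6-base sites that end in GGTCA or GTTCA, with their first base left free. For a spacing of 5 bases the words were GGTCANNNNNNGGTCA, GGTCANNNNNNGTTCA, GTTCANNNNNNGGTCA and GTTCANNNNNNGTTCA, and for a spacing of 2 bases GGTCANNNGGTCA, GGTCANNNGTTCA, GTTCANNNGGTCA and GTTCANNNGTTCA. The AP-1 site, bound by the FOS and JUN proteins that act downstream of EGF, was written as TGANTCA. The windows below are shown because they are the only ones with a match. Capitals mark the match, and both are written 5′ to 3′ on the strand of the gene.

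RARB, chr3:25428013-25428262, plus strand: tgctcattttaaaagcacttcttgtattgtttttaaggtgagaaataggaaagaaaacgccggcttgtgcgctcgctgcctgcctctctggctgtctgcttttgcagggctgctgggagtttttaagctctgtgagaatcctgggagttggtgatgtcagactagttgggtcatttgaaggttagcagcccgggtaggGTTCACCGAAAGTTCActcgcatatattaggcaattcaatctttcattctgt

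DHRS3, chr1:12596614-12596863, minus strand: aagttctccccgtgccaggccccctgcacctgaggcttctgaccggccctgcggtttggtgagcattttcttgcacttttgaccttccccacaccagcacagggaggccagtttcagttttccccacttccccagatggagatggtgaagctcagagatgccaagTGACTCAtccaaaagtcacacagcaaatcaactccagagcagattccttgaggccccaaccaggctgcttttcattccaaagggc

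The match in RARB lies 52 to 37 bases before the start of only 1 of its windows. Of the 35116 windows in the table, 0.148% hold a word of this kind. No window of the 7 genes held the form with a spacing of 2 bases, which 0.145% of all windows hold. The AP-1 match in DHRS3 lies 85 to 79 bases before the start of 1 of its 3 windows, and 6.57% of all windows hold one. A match is a description of the letters, and no binding was measured. The counts are per gene and do not tell which start was used.

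The libraries held 15611961 to 25856953 counts, of which mitochondrial genes took 7.69% to 16.9%. Levels are given as CPM, the counts scaled to a common library size by TMM, as the group mean with its SD. Changes were tested by the quasi-likelihood method of edgeR in 16522 genes, and a gene was called where the p value, adjusted by Benjamini-Hochberg over all of them, was under 0.05. None of the 9 genes was lost to the filter on low counts. The epithelial markers EPCAM (138 to 225 CPM) and KRT18 (684 to 5342 CPM) were high in every library. Of the receptors by which triple negative tumors are defined, PGR had 0 counts in all libraries, while ESR1 (1.91 to 6.53 CPM) and ERBB2 (7.79 to 24.6 CPM) were low but detected, and both were called lower than CTR at 12, 24 and 72 h. KRT18 moved with the groups, from a mean of 788 CPM in CTR to 5136 CPM at 12 h, 2650 CPM at 24 h, 835 CPM at 48 h and 1441 CPM at 72 h. Of 7 markers of leukocytes, endothelium and fibroblasts, PTPRC, CD3E, VWF, COL3A1 and DCN had at most 9 counts in any library. The summed level of the 7 was 7.11 to 10.1 CPM in CTR, 9.59 to 11.04 CPM at 12 h, 12.1 to 15.9 CPM at 24 h, 14.9 to 18.1 CPM at 48 h and 16.5 to 18.02 CPM at 72 h, nearly all of it from COL1A1 and PECAM1. The part of these shifts in the results was not tested. In bulk RNA, fewer cells that express a gene and less RNA per cell cannot be told apart.

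Compared to CTR, 8 of the 9 genes were called at 12 h, 4 higher and 4 lower, where 69.4% of all genes tested were called. At 24 h, 8 were called (3 higher, 5 lower) against 58.8% of all genes, at 48 h 8 (4 higher, 4 lower) against 45.8%, and at 72 h 7 (3 higher, 4 lower) against 61.6%. When a change of more than 1.5-fold in either direction was asked for as well, 7, 8, 6 and 6 genes remained at the successive times, against 46.6%, 33.7%, 22% and 35.8% of all genes. The median absolute log2 fold change of the 9 genes was 1.39, 1.72, 0.95 and 0.89 at the successive times. Over all genes tested it was 0.59, 0.42, 0.30 and 0.44. The list was drawn up with earlier results of these data known, so these comparisons with all genes are descriptive only. ALDH1A3, DHRS3 and CYP26B1 were higher at all 4 times, and ALDH1A1, ALDH3B2 and RARB were lower at all 4. The 4 comparisons share the CTR libraries.

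**Figure D1:**
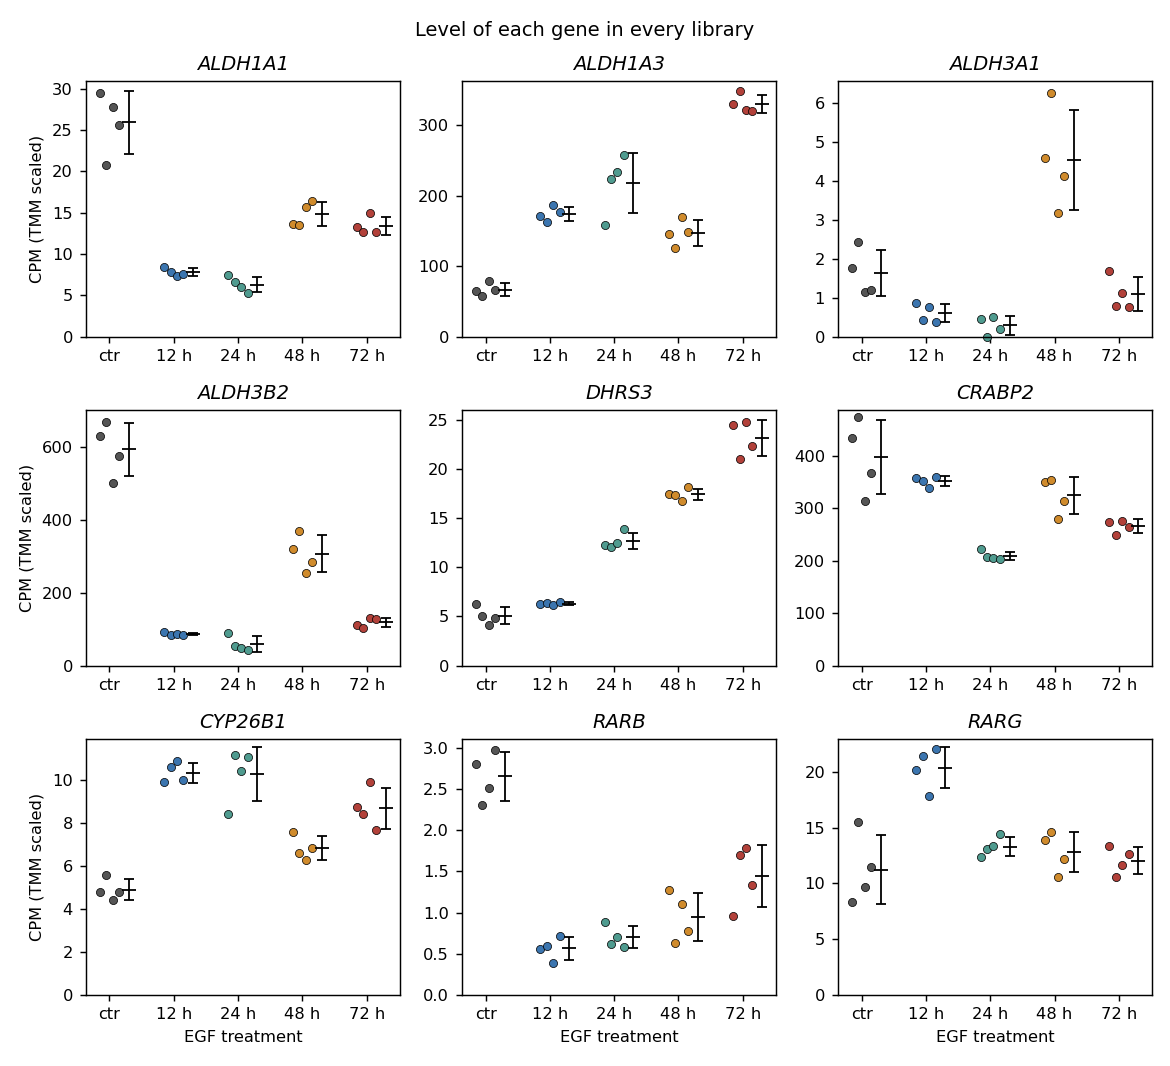
Level of each of the 9 genes in CPM (vertical axes from 0, linear, scaled per gene) in CTR and at each time of EGF-treatment. Points are the 4 libraries of a group in order of replicate number, and the bar beside them gives the mean and SD. DHRS3 climbs from a mean of 5.07 to 23.1 CPM, while ALDH3B2 drops from 594 to 59.1 CPM at 24 h and stands at 307 CPM at 48 h.

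Of the aldehyde dehydrogenases that make retinoic acid, ALDH1A3 was upregulated at every time and ALDH1A1 downregulated at every time. ALDH1A3 (chr15:100877714-100916626, plus strand) had 64.3, 56.9, 78.8 and 65.6 CPM in CTR replicates 1 to 4. After 12 h the values were 171, 163, 187 and 176 CPM, and after 24 h 158, 223, 233 and 258 CPM. Every EGF library was above every CTR library at both times. At 48 h ALDH1A3 stood at 145, 126, 170 and 148 CPM, and at 72 h at 330, 348, 322 and 320 CPM. The 72 h libraries were the highest of all 20 and varied least relative to their mean (330 ± 12.8 CPM, a coefficient of variation of 3.89%).

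The log2 fold change of ALDH1A3 against CTR was 1.39 ± 0.12 (SE, n = 4 per group) after 12 h, and 1.72 ± 0.12, 1.15 ± 0.12 and 2.31 ± 0.12 after 24, 48 and 72 h. That is 2.62-, 3.28-, 2.22- and 4.97-fold, with adjusted p of 2.91e-10, 1.39e-11, 2.55e-08 and 6.16e-14. Its course was not even. ALDH1A3 fell from 24 to 48 h (log2 fold change -0.57 ± 0.11, adjusted p = 0.000255), with 3 of 4 libraries at 48 h below all at 24 h, and rose 2.24-fold from 48 to 72 h (adjusted p = 4.1e-08). Levels at 12 and 48 h did not pass the test against each other (log2 fold change -0.24 ± 0.11, adjusted p = 0.061). The step from 12 to 24 h was 0.32 ± 0.11 (adjusted p = 0.0198), and it lost its call in 6 of 18 alternative settings, among them leaving out EGF 12 h replicate 2 (adjusted p = 0.0598), EGF 24 h replicate 3 (0.0584) or EGF 24 h replicate 4 (0.102). EGF 24 h replicate 1, the lowest of its group at 158 CPM, lay below the 12 h libraries, and without it the step was 0.46. The annotation places 27.5% of the exon bases of ALDH1A3 under the antisense gene AC015712.2. That gene had 1 to 25 counts per library, against 1280 to 8553 for ALDH1A3, and the sources used here do not say whether counting used the strand.

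ALDH1A1 (chr9:72900662-73080442, minus strand) went the other way. The CTR libraries had 29.5, 20.8, 27.8 and 25.6 CPM. These fell to 8.44, 7.79, 7.35 and 7.56 CPM at 12 h and to 7.41, 6.55, 5.96 and 5.22 CPM at 24 h. By 48 h ALDH1A1 had come back to 13.6, 13.4, 15.7 and 16.4 CPM, and it stood at 13.3, 12.6, 14.9 and 12.7 CPM at 72 h. No EGF library reached the lowest CTR library, and the 48 and 72 h libraries all lay above those of 12 and 24 h. ALDH1A1 was 3.32-fold lower than CTR at 12 h (log2 fold change -1.73 ± 0.11, adjusted p = 3.04e-12) and 4.11-fold lower at 24 h (-2.04 ± 0.12, adjusted p = 3.95e-13). At 48 h it was 1.75-fold lower (-0.81 ± 0.11, adjusted p = 1.57e-06) and at 72 h 1.93-fold lower (-0.95 ± 0.11, adjusted p = 6.75e-08). The rise from 24 to 48 h was 2.35-fold (adjusted p = 1.25e-08). Between 48 and 72 h no difference passed the test (log2 fold change -0.15 ± 0.11, adjusted p = 0.329), and the further drop from 12 to 24 h (-0.31 ± 0.12, adjusted p = 0.0411) lost its call in 10 of 18 alternatives, among them leaving out EGF 12 h replicate 1, 2 or 4 or EGF 24 h replicate 2, 3 or 4 (adjusted p from 0.0522 to 0.153).

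Per kb of exon, the level of ALDH1A3 was 11.5 ± 1.58 CPM and that of ALDH1A1 9.09 ± 1.33 CPM in CTR (SD, n = 4), and their ranges overlapped. The ratio of the 2 levels per length, taken within each library, was 1.08 to 1.40 in CTR. It was 9.99 to 12.6 at 12 h, 10.5 to 24.4 at 24 h, 4.47 to 5.34 at 48 h and 10.7 to 13.6 at 72 h. ALDH1A3 was thus more abundant per length than ALDH1A1 in every library, those of CTR included. The median ratio was 1.31 in CTR, 18.05 at 24 h and 4.93 at 48 h.

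ALDH1A2, the remaining enzyme of the ALDH1A group, was low and had a course unlike those of ALDH1A1 and ALDH1A3. It fell from a mean of 2.62 CPM in CTR to 1.07 CPM at 12 h (log2 fold change -1.29), and was 2.16 CPM at 24 h, where it did not pass the test. At 48 h it rose to 7.64 CPM (log2 fold change 1.54) and at 72 h to 7.04 CPM (1.42). Its level per kb, at most 0.886 CPM in the group means, was below that of ALDH1A1 and ALDH1A3 in every group.

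**Figure D2:**
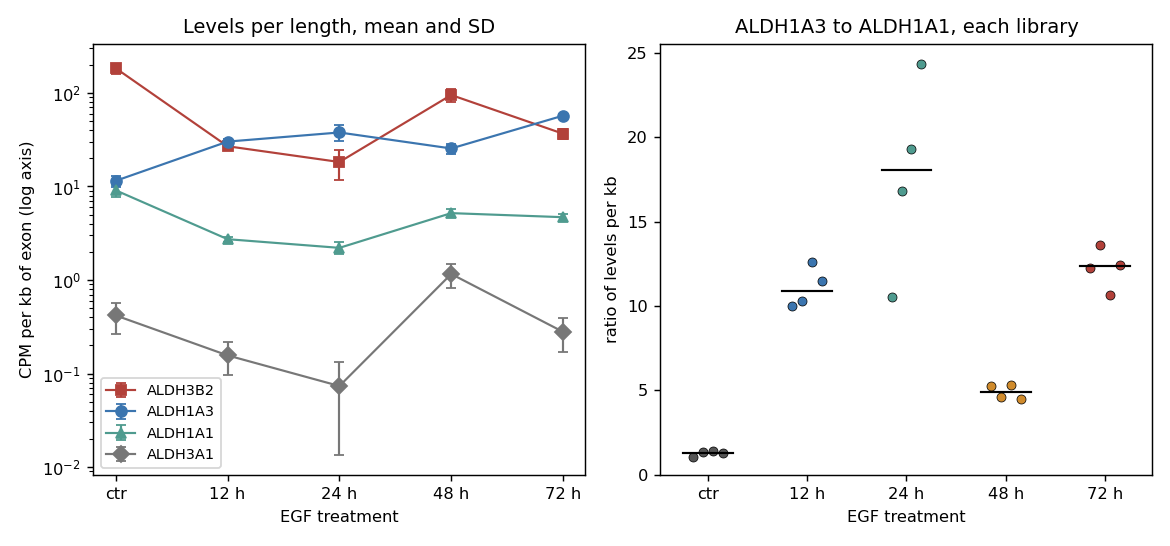
Left, levels of the 4 aldehyde dehydrogenases in CPM per kb of exon (log axis, mean and SD over 4 libraries) by EGF-treatment. Right, the ratio of ALDH1A3 to ALDH1A1 per length in each library (linear axis from 0, line at the median): the median is 1.31 in CTR and lies between 4.93 and 18.05 with EGF.

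ALDH3B2 showed the largest fall among the 9 genes at 12, 24 and 72 h. The gene (chr11:67662162-67681200, minus strand) encodes a member of the branch of the family that acts on medium and long chain aldehydes. CTR libraries had 629, 670, 501 and 575 CPM. At 12 h the values were 92.3, 85.3, 87.0 and 83.7 CPM, and at 24 h 89.9, 55.1, 48.0 and 43.4 CPM. All 8 of these libraries lay far below CTR, and EGF 24 h replicate 1 was within the range of the 12 h libraries. At 48 h ALDH3B2 had returned to 321, 370, 253 and 285 CPM, before it stood at 112, 103, 130 and 129 CPM at 72 h. The 48 h libraries were above every other EGF library and below every CTR library.

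Against CTR, ALDH3B2 was 6.82-fold lower at 12 h (log2 fold change -2.77 ± 0.18, adjusted p = 9.44e-11) and 10.03-fold lower at 24 h (-3.33 ± 0.19, adjusted p = 1.6e-11). It was 1.93-fold lower at 48 h (-0.95 ± 0.17, adjusted p = 0.000151) and 5.01-fold lower at 72 h (-2.32 ± 0.18, adjusted p = 1.35e-09). The level rose 5.19-fold from 24 to 48 h (adjusted p = 4.58e-09) and fell 2.59-fold from 48 to 72 h (adjusted p = 5.32e-06). The smaller step from 12 to 24 h (log2 fold change -0.56 ± 0.18, adjusted p = 0.0121) lost its call in 3 of 18 alternatives and was -0.84 without EGF 24 h replicate 1. Of all genes tested, 2.25% had a larger absolute change at 24 h.

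ALDH3A1 (chr17:19737984-19748943, minus strand), known from the cornea and as a target of the aryl hydrocarbon receptor, had few counts. CTR replicates 1 to 4 held 35, 58, 27 and 25 counts, those of 12 h 17, 8, 14 and 8, and those of 24 h 9, 0, 8 and 4. At 48 h there were 83, 128, 84 and 91 counts, and at 72 h 44, 14, 20 and 12. The 48 h libraries exceeded all others, and those of 12 and 24 h were below every CTR library. The mean was 1.64 ± 0.60 CPM in CTR (SD, n = 4), 0.613 ± 0.24 CPM at 12 h, 0.288 ± 0.24 CPM at 24 h, 4.54 ± 1.29 CPM at 48 h and 1.09 ± 0.43 CPM at 72 h. ALDH3A1 was the only one of the 9 genes called lower at some times and higher at another. Its log2 fold change was -1.42 ± 0.40 at 12 h (adjusted p = 0.00315), -2.50 ± 0.46 at 24 h (adjusted p = 6.02e-05) and 1.46 ± 0.33 at 48 h (adjusted p = 0.000829). At 72 h it did not pass the test (-0.54 ± 0.37, adjusted p = 0.208). From 48 to 72 h ALDH3A1 fell 4.00-fold (adjusted p = 8.52e-05). Between 12 and 24 h the difference did not pass (-1.09 ± 0.53, adjusted p = 0.0877), except without EGF 24 h replicate 3 (adjusted p = 0.0478). The 24 h libraries had 0 to 9 counts, so the size of the change at 24 h is uncertain. It ranged from -2.86 to -2.11 over 16 alternatives, a prior count of 2 among them, and none lost the call.

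DHRS3 (chr1:12567910-12617731, minus strand), the reductase that returns retinaldehyde to retinol, rose from each time to the next. In CTR it had 6.23, 5.09, 4.14 and 4.81 CPM, and at 12 h 6.26, 6.32, 6.19 and 6.50 CPM. The values were 12.3, 12.1, 12.5 and 13.9 CPM at 24 h, 17.5, 17.4, 16.7 and 18.1 CPM at 48 h, and 24.5, 21.0, 24.7 and 22.4 CPM at 72 h. From 12 h on, the groups did not overlap with one another. DHRS3 was 2.51-fold above CTR at 24 h (log2 fold change 1.33 ± 0.10, adjusted p = 7.14e-11), 3.44-fold at 48 h (1.78 ± 0.10, adjusted p = 5.61e-13) and 4.58-fold at 72 h (2.20 ± 0.10, adjusted p = 3.55e-15). The steps were 2.01-fold from 12 to 24 h (adjusted p = 2.01e-08), 1.37-fold from 24 to 48 h (adjusted p = 0.000296) and 1.33-fold from 48 to 72 h (adjusted p = 0.000981). At 12 h the change was 0.32 ± 0.11 (adjusted p = 0.00964), with 3 of 4 libraries above all of CTR. That call depends on scaling, since the change was 0.038 (adjusted p = 0.769) with library sizes alone and 0.16 (adjusted p = 0.193) with upper quartiles, which moved the median of all genes at 12 h by -0.28 and -0.16.

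CRABP2 (chr1:156699606-156705816, minus strand), which carries retinoic acid, was the most abundant of the 9 genes per length in every group, with 362 ± 64.2 CPM per kb in CTR (SD, n = 4). Its libraries ranged from 314 to 474 CPM in CTR, 338 to 360 CPM at 12 h, 203 to 222 CPM at 24 h, 280 to 355 CPM at 48 h and 249 to 277 CPM at 72 h. The 24 h libraries were the lowest and overlapped with no other group. CRABP2 was 1.90-fold lower than CTR at 24 h (log2 fold change -0.93 ± 0.09, adjusted p = 8.87e-09) and 1.496-fold lower at 72 h (-0.58 ± 0.09, adjusted p = 8.7e-06). At 48 h it was lower by less (-0.29 ± 0.09, adjusted p = 0.0117), a call lost in 3 of 18 alternatives, among them leaving out CTR replicate 2 (adjusted p = 0.0592) or EGF 48 h replicate 3 (adjusted p = 0.0529). The difference at 12 h did not pass (-0.18 ± 0.09, adjusted p = 0.0924) but did in 5 alternatives, with -0.46 at most (library sizes alone) and -0.27 without CTR replicate 3. Between times, CRABP2 fell 1.68-fold from 12 to 24 h (adjusted p = 4.94e-07), rose 1.55-fold from 24 to 48 h (adjusted p = 5.68e-06), and its 1.22-fold fall from 48 to 72 h (adjusted p = 0.018) was lost without EGF 48 h replicate 1 (adjusted p = 0.0618), EGF 48 h replicate 2 (adjusted p = 0.059) or EGF 72 h replicate 2 (adjusted p = 0.0605).

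CYP26B1 (chr2:72129238-72148038, minus strand), which breaks retinoic acid down, was higher with EGF at all times. Its libraries held 4.44 to 5.59 CPM in CTR, 9.90 to 10.9 CPM at 12 h, 8.45 to 11.2 CPM at 24 h, 6.27 to 7.59 CPM at 48 h and 7.66 to 9.94 CPM at 72 h. No EGF group overlapped with CTR. The rise was 2.11-fold at 12 h (log2 fold change 1.08 ± 0.11, adjusted p = 8.17e-09), 2.09-fold at 24 h (1.07 ± 0.11, adjusted p = 1.73e-08), 1.39-fold at 48 h (0.47 ± 0.11, adjusted p = 0.00148) and 1.77-fold at 72 h (0.83 ± 0.11, adjusted p = 9.18e-07). CYP26B1 fell from 24 to 48 h (log2 fold change -0.59 ± 0.11, adjusted p = 8.76e-05). The difference between 12 and 24 h did not pass the test (-0.01 ± 0.11, adjusted p = 0.953). The step up from 48 to 72 h (0.35 ± 0.11, adjusted p = 0.0143) lost its call in 3 alternatives, including without EGF 72 h replicate 3 (adjusted p = 0.0631). The related CYP26A1, which retinoic acid strongly induces in many cells, had at most 2 counts in any library.

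Of the receptor genes, RARB was lower at all 4 times and RARG higher at 12 h. RARB (chr3:25174332-25597932, plus strand), whose promoter window with the response element is printed above, had 56, 55, 59 and 62 counts in CTR, or 2.66 ± 0.30 CPM (SD, n = 4). At 12 h there were 11, 11, 7 and 15 counts (0.565 ± 0.14 CPM), and at 24 h 18, 11, 11 and 12 (0.701 ± 0.14 CPM). Counts were 23, 13, 29 and 17 at 48 h (0.946 ± 0.29 CPM) and 25, 30, 32 and 21 at 72 h (1.45 ± 0.38 CPM). Every EGF library was below every CTR library. RARB was 4.63-fold lower at 12 h (log2 fold change -2.21 ± 0.25, adjusted p = 3.89e-08), 3.75-fold lower at 24 h (-1.91 ± 0.25, adjusted p = 4.65e-07), 2.80-fold lower at 48 h (-1.48 ± 0.23, adjusted p = 1.32e-05) and 1.85-fold lower at 72 h (-0.89 ± 0.22, adjusted p = 0.00156). No step between successive times passed the test, with adjusted p of 0.396, 0.196 and 0.0604, the last of which passed without EGF 48 h replicate 1 (adjusted p = 0.0311) or EGF 72 h replicate 1 (adjusted p = 0.0201). The levels at 12 and 72 h did differ, by 2.51-fold (adjusted p = 0.00013). RARB shares 28 exon bases, 0.757% of its total, with TOP2B on the opposite strand, which had 1085 to 2706 counts per library. Reads of the 2 genes in these bases cannot be told apart without strand, and RARB had only 7 to 62 counts.

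RARG (chr12:53210567-53232980, minus strand) had 8.34, 15.5, 9.65 and 11.5 CPM in CTR, with a coefficient of variation of 27.6%, the highest of the 9 genes in CTR after that of ALDH3A1 (36.7%). The 12 h libraries had 20.2, 21.4, 17.8 and 22.0 CPM, all above CTR. At 12 h RARG exceeded CTR 1.81-fold (log2 fold change 0.86 ± 0.14, adjusted p = 7.87e-06) and fell 1.53-fold from 12 to 24 h (adjusted p = 0.000676). Libraries ranged from 12.4 to 14.4 CPM at 24 h, 10.6 to 14.6 CPM at 48 h and 10.6 to 13.3 CPM at 72 h, all within the range of CTR. The log2 fold changes of 0.24, 0.18 and 0.10 did not pass, with adjusted p of 0.152, 0.314 and 0.564. Without CTR replicate 2 all 3 passed, with 0.44 (adjusted p = 0.00398), 0.37 (adjusted p = 0.0144) and 0.30 (adjusted p = 0.0424), and with scaling factors per gene, taken from the deposited normalized values, the change at 24 h passed as well (0.45, adjusted p = 0.0338).

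**Figure D3:**
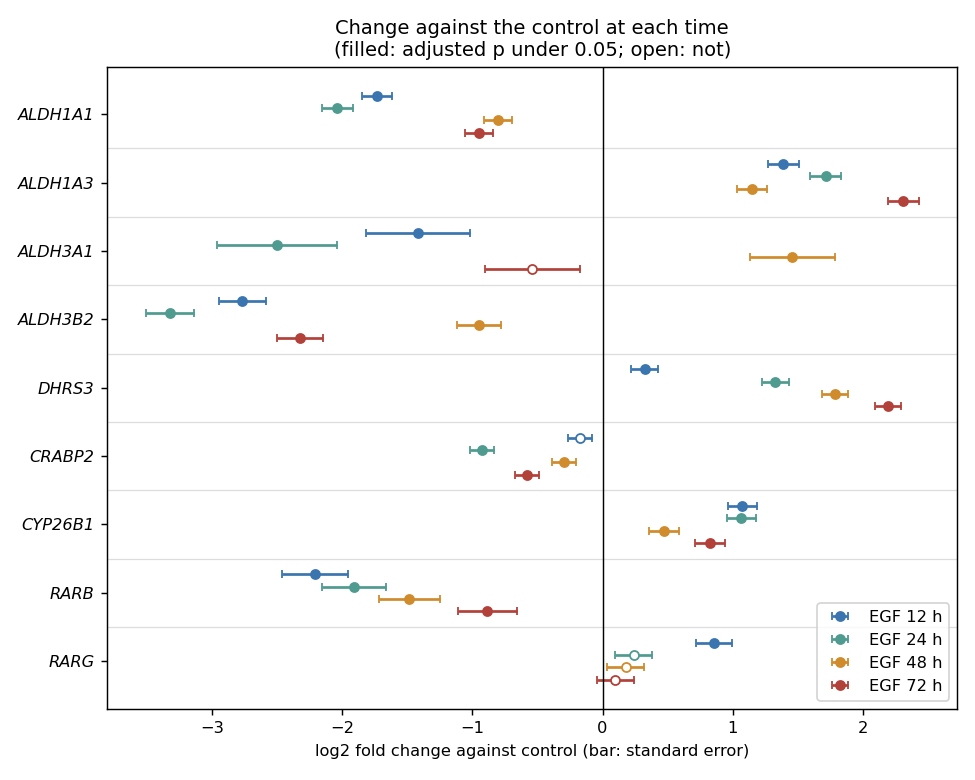
Log2 fold change of each gene against CTR (horizontal axis) at each time of EGF-treatment, with the standard error from edgeR. Filled points passed an adjusted p of 0.05 and open points did not. ALDH3A1 lies at -2.50 at 24 h and at 1.46 at 48 h, on either side of the line at 0.

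Between successive times, 6 of the 9 genes were called from 12 to 24 h (2 higher, 4 lower), where 53.7% of all genes were. From 24 to 48 h 7 genes were called (5 higher, 2 lower), against 50.2% of all genes. The 5 that rose were ALDH1A1, ALDH3A1, ALDH3B2, DHRS3 and CRABP2, of which all but DHRS3 had been lower than CTR at 24 h. The 2 that fell were ALDH1A3 and CYP26B1, both higher than CTR at 24 h. From 48 to 72 h 6 genes were called (3 higher, 3 lower), against 35.7% of all genes. ALDH1A3, CYP26B1, ALDH3B2, ALDH3A1 and CRABP2 moved away from their 48 h level in the direction opposite to the step before. Over all genes tested, the median absolute log2 fold change against CTR was also smaller at 48 h (0.30) than at 24 h (0.42) and 72 h (0.44). The share of all genes that turned back in this way was not counted, so whether the turn is particular to these genes was not tested.

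Per kb of exon, CRABP2 was the highest in each group, and the gene in second place was ALDH3B2 in CTR and at 48 h and ALDH1A3 at 12, 24 and 72 h. ALDH1A3 and ALDH3B2 overlapped at 12 h (28.2 to 32.5 and 25.9 to 28.5 CPM per kb) and 24 h. At 72 h ALDH1A3 had 57.1 ± 2.22 and ALDH3B2 36.7 ± 4.16 CPM per kb (SD, n = 4), without overlap. The receptor genes were low, with 2.19 CPM per kb for RARG and 0.718 CPM per kb for RARB in CTR. RARG and DHRS3 overlapped in CTR, DHRS3 and CYP26B1 at 12 h, ALDH1A1 with both RARG and CYP26B1 at 24 h, ALDH1A1 and DHRS3 as well as CYP26B1 and ALDH3A1 at 48 h, and RARB and ALDH3A1 at 12 and 72 h.

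The genes whose course over the 20 libraries was nearest to those of the 9 were found by the root mean square difference of centred log2 CPM among 13881 genes, as a description. For ALDH1A3 the nearest was WARS1, with a difference of 0.17 where ALDH1A3 itself varied by 0.78 around its mean. ALDH3B2 was nearest to C11orf53 (0.23, with 1.25 for ALDH3B2 itself), DHRS3 to TUBA4A (0.16, with 0.84) and ALDH1A1 to ALG6 (0.23, with 0.73). CRABP2 was nearest to CD82 (0.088, with 0.35) and RARG to RAPGEF1 (0.099, with 0.36). The low genes had no close match, with 0.36 between RARB and LYPD6B and 0.74 between ALDH3A1 and RDM1.

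Among the other aldehyde dehydrogenases, more genes were called lower than higher at each time, under each of the scalings tried. Of 15 genes listed, 13 were tested, and 9 were lower and 3 higher at 12 h, 9 lower and 3 higher at 24 h, 6 lower and 3 higher at 48 h, and 9 lower and 3 higher at 72 h. Of all genes tested, 36.5%, 29.6%, 21.8% and 31% were called lower and 32.9%, 29.2%, 24% and 30.6% higher at these times. The median log2 fold change of the list was -0.58, -0.52, -0.23 and -0.52, against -0.05, -0.01, 0.01 and -0.01 over all genes. At 48 h the split was less uneven, and past 1.5-fold it was 3 lower and 3 higher. ALDH2, the mitochondrial enzyme that clears acetaldehyde, fell from 41.5 ± 2.61 CPM in CTR (SD, n = 4) to 8.56 ± 1.70 CPM at 72 h, a 4.87-fold change (log2 -2.28 ± 0.11, adjusted p = 1.21e-14). ALDH6A1, of valine breakdown, fell 3.24-fold at 12 h, from 101 ± 7.495 to 31.1 ± 1.19 CPM (adjusted p = 2.62e-15), and with 104 ± 6.86 CPM at 48 h did not pass the test there.

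**Figure D4:**
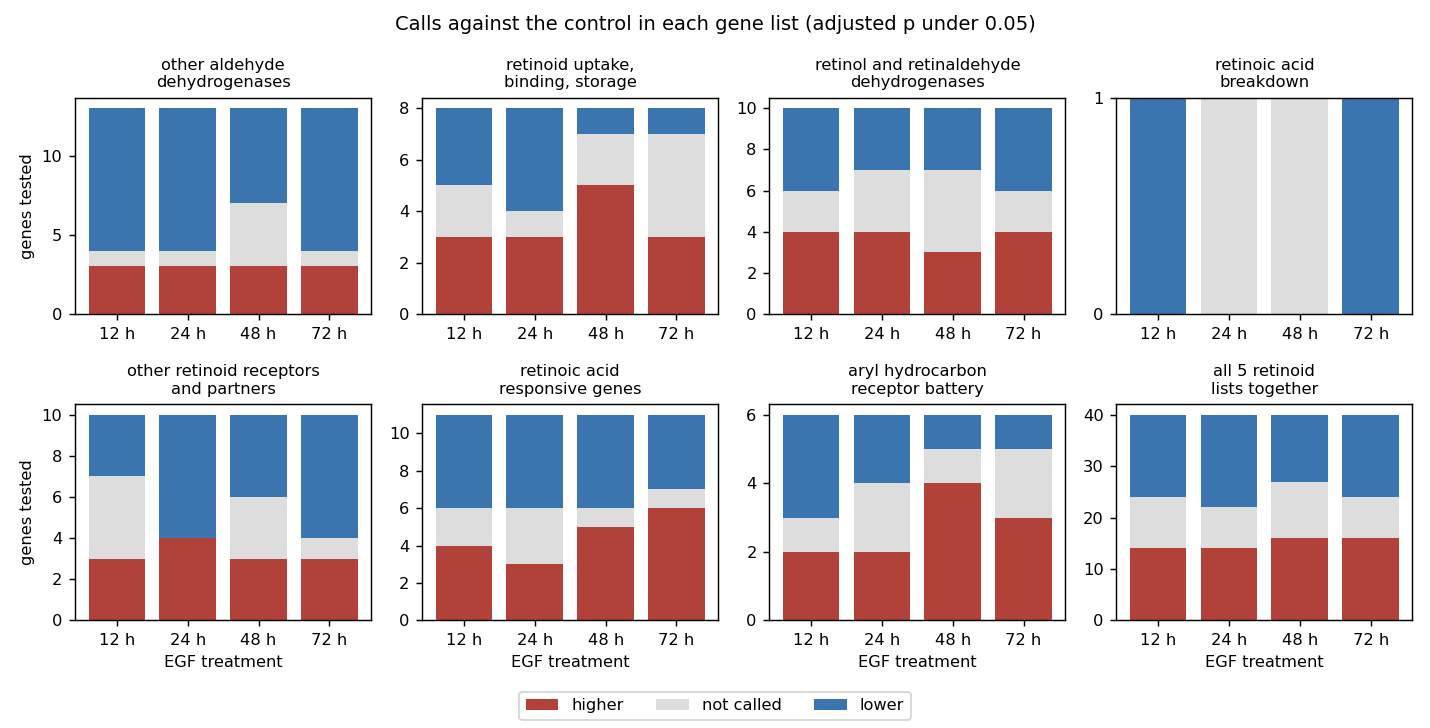
Number of tested genes (vertical axes) called higher, lower or neither against CTR at each time in each gene list, with the 5 retinoid lists combined in the last panel. The other aldehyde dehydrogenases hold 9 lower and 3 higher genes of 13 at 12, 24 and 72 h, while the 40 combined retinoid genes split more evenly.

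Of the other retinoid genes, similar numbers were called higher and lower. Of 56 genes in 5 lists, 40 were tested, with 14 higher and 16 lower at 12 h, 14 and 18 at 24 h, 16 and 13 at 48 h, and 16 and 16 at 72 h. Over all genes, 32.9% were higher and 36.5% lower at 12 h, 29.2% and 29.6% at 24 h, 24% and 21.8% at 48 h, and 30.6% and 31% at 72 h, so that at 12 h the list stood near the background. Its median log2 fold change was 0.03, -0.21, 0.10 and 0.07 at the successive times. In uptake, binding and storage, LRAT, which stores retinol as esters, rose from 4.13 ± 0.86 CPM in CTR (SD, n = 4) to 23.7 ± 1.40 CPM at 12 h and 43.5 ± 8.54 CPM at 24 h, the latter a 10.5-fold change (log2 3.39 ± 0.14, adjusted p = 1.15e-15). It was 9.64 ± 0.86 CPM at 48 h and 29.1 ± 2.52 CPM at 72 h. RBP7, a cellular retinol-binding protein, rose 4.99-fold by 72 h, from 2.28 to 11.4 CPM (adjusted p = 6.16e-14). STRA6, the receptor for the retinol carrier, was called lower at 12 and 24 h (log2 fold change -0.52 and -0.57) and higher at 48 h (1.06). CRABP1, the relative of CRABP2, was lower at 24, 48 and 72 h (-0.53, -0.96 and -1.27). FABP5, which shares its sequence with many near-identical copies, had at most 5 counts, and its level is uncertain.

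Among enzymes that interconvert retinol and retinaldehyde, RDH10, which makes retinaldehyde, was lower at 12 h (log2 fold change -0.44) and higher at 48 h (0.65). The aldo-keto reductase genes diverged. AKR1B10 was lower at all times and 4.30-fold lower at 72 h (58.6 to 13.6 CPM, adjusted p = 3.22e-15), while AKR1B1 was higher at all times and 2.63-fold higher at 48 h (119 to 314 CPM, adjusted p = 1.94e-13). CYP2S1, the tested gene of the breakdown list, was 1.77-fold lower at 12 h (adjusted p = 0.000118). The receptor RARA was lower at 24 and 72 h (log2 fold change -0.63 and -0.66), RXRA at all times (-0.63, -0.73, -0.41 and -0.78) and RXRB at 24 h (-0.42). PPARD, a nuclear receptor that pairs with RXR, rose 2.71-fold at 12 h (adjusted p = 5.44e-10).

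The genes known to respond to retinoic acid gave no single direction either, with 4 higher and 5 lower of 11 tested at 12 h, 3 and 5 at 24 h, 5 and 5 at 48 h, and 6 and 4 at 72 h. The shares of all genes called higher, 32.9%, 29.2%, 24% and 30.6%, put the numbers higher at 12 and 24 h near the background. Of all genes, 36.5%, 29.6%, 21.8% and 31% were called lower at these times. The median log2 fold change of the list was 0.14, 0.16, 0.21 and 0.43. TGM2, a transglutaminase, had 2 to 6 counts in the CTR libraries and 344 to 428 at 12 h, or 0.19 and 19.9 CPM (log2 fold change 6.64 ± 0.21, adjusted p = 5.57e-18). LCN2, which binds the iron carriers of bacteria, rose from 141 ± 27.4 CPM in CTR (SD, n = 4) to 2008 ± 71.9 CPM at 72 h, 14.2-fold (adjusted p = 6.01e-20). Both genes also respond to many other signals.

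For the aryl hydrocarbon receptor genes, among which ALDH3A1 is usually counted, 6 of 8 were tested. At 12 h 2 were higher and 3 lower, at 24 h 2 and 2, at 48 h 4 and 1, and at 72 h 3 and 1, where 69.4%, 58.8%, 45.8% and 61.6% of all genes were called in either direction. The genes called at 48 h are named after their values were seen. Those higher were AHR (log2 fold change 0.60), CYP1A1 (1.62, with a mean of 0.780 CPM), CYP1B1 (0.45) and TIPARP (0.94), and NQO1 was lower (-0.20, adjusted p = 0.0485). AHR, the receptor itself, was higher at the other times too, by 1.26 at 12 h, 1.45 at 24 h and 0.93 at 72 h. Activity of the receptor was not measured, and whether it had a part in the course of ALDH3A1 was not tested. NQO1 was lower by more at 12 h (-1.05) and 24 h (-1.28). CYP1B1 fell 4.87-fold at 12 h, from 176 to 36.2 CPM (adjusted p = 1.18e-16). TIPARP rose 4.86-fold at 12 h, from 14.5 to 70.3 CPM (adjusted p = 7.27e-15).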

How the data were processed

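RNA-seq of 20 MDA-MB-468 libraries (Lexogen Corall mRNA kit) was analysed. The authors deposited 10 tables with the same values per library. They hold estimated counts per gene, rounded to whole numbers, and normalized values, here treated as a score, which the authors made in DESeq2 with factors that vary between genes and libraries. The tables also hold fold changes and p-values of their own comparisons, which were not used. The labels name hg38. The aligner, counter, annotation, strand setting and handling of duplicates are not given in the sources used here, so counts may include PCR duplicates and overlapping genes.

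The estimated counts, as whole numbers, were fitted in edgeR 4.0.16 (limma 3.58.1, R 4.3.3) with TMM scaling and filterByExpr, in 1 model of 20 libraries and 5 groups. The robust quasi-likelihood test was used with Benjamini-Hochberg adjustment and a prior count of 0.125. The standard error is the log2 fold change divided by the root of the F statistic. The procedure was checked on simulated counts. Alternatives were other scalings, per-gene factors taken from the deposited scores (20 or more counts throughout), the Wald test of DESeq2 1.42.0, a filter of 1 or of 10 counts, a fit of only the 2 groups, a replicate block, a prior of 2, and omitting 1 library at a time. The 9 genes and the lists were chosen with earlier results of these data known. Named are the 9 genes, 12 genes of the retinoid pathway, and per list the 2 largest changes among called genes with at least 1 CPM and no overlap with the control. Some genes that these rules name are not reported here. Positions and exon lengths are from GENCODE 29 (GRCh38), promoters from RefSeq (GRCh38.p14). Chi-square per gene between replicates was 3.49 to 56.4 over 30 pairs, so no library was a repeat. Replicate numbers were not treated as a pairing of the libraries in the main fit. Depth limits genes under about 1 CPM.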

Additional observations from a re-analysis of the deposited data

Results flagged for a closer look

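Of the 9 genes, ALDH3A1 passed the test against the control in opposite directions at different times, and the difference between the times passed the test itself. It was lower at 12 and 24 h and higher at 48 h, with a log2 fold change of 2.88 ± 0.38 at 48 against 12 h (adjusted p = 4.29e-07) and of 3.96 ± 0.43 at 48 against 24 h (adjusted p = 8.51e-08), by the quasi-likelihood method of edgeR over all genes. All 4 libraries at 48 h were above all of 12 and 24 h. The counts behind this are low (0 to 17 at 12 and 24 h), and the change from 24 to 48 h ranged from 3.57 to 4.32 over 16 alternatives. Both comparisons with the control share its libraries. In none of 45 groups of 4 values (9 genes in 5 groups) did the gap of 1 library to the others exceed Dixon's critical value. Chance exceeds that value in about 1 of 20 groups. The check takes each gene alone and does not look at a library over several genes. Within its group, EGF 24 h replicate 1 lay nearest to the control mean for ALDH1A1, ALDH1A3, ALDH3B2, CRABP2, CYP26B1, RARB and RARG. For DHRS3 and ALDH3A1 it did not. Differences in size between times with the same direction are given with each gene above.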

How the results depend on the processing

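Counts of called genes were within 1.5 times the main count except in 3 cases. With factors per gene, 7 other aldehyde dehydrogenases were called at 12 h (12 in the main fit) and 19 other retinoid genes at 48 h (29 in the main fit), of 12 and 35 genes left. With at least 10 counts in every library, 3 of the 9 genes were called and past 1.5-fold from 24 to 48 h (5 in the main fit), since only 7 of them remained. Leaving out 1 library left every count within 1.5 times its main value.

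Small differences changed sign without passing the test. For CYP26B1 between 12 and 24 h (-0.01) the log2 fold change was 0.13 with library sizes alone, 0.11 with upper quartiles, 0.033 with factors per gene, 0.031 with at least 10 counts and 0.0088 with the 8 libraries, and it ranged from -0.053 (without EGF 24 h replicate 2) to 0.076 (without EGF 24 h replicate 1) when 1 library was left out, with 0.0027 and 0.014 without EGF 12 h replicate 2 or 3. For RARG between 24 and 48 h (-0.06) it was 0.094 with library sizes alone, 0.0082 with upper quartiles and, with 1 library left out, from -0.13 to 0.023 (without EGF 48 h replicate 3). For RARG at 72 h (0.10) it went from -0.018 without control replicate 1 to 0.30 without control replicate 2. The cause was not tested.

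Scaling moved all genes. Library sizes alone shifted the median log2 fold change by -0.28 at 12 h, -0.14 at 24 h, 0.14 from 12 to 24 h and 0.15 from 24 to 48 h, upper quartiles by -0.16 at 12 h and 0.12 from 12 to 24 h, and factors per gene by 0.12 and -0.12 there. The share of higher calls at 12 h was 47.4% in the main fit, 30.2% with library sizes alone and 37.2% with upper quartiles, and at 24 h 49.6% and 36.3% with library sizes alone. From 12 to 24 h it was 51.9%, against 68.6%, 66.1% and, with factors per gene, 39.2%. It was 51.5% and 71.8% from 24 to 48 h and 50% and 33.8% from 48 to 72 h with library sizes alone.

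The replicate block called 8 of the 9 genes at 12 h, as without it, and changed the call of none of them in any comparison with the control or between successive times. Over all genes it called 11577 instead of 11465 at 12 h. Same-numbered libraries correlated by -0.239 to 0.348 in their deviations from the group means, with 5 of 40 pairs over 0.1. Of 20 libraries, 8 correlated best with their own number. The numbers were not used as a pairing in the main fit. These correlations over all genes do not settle whether same-numbered libraries of some groups shared a culture or day. Genes under about 1 CPM, such as ALDH3A1 at 24 h, are limited by depth.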
